A study of Homo sapiens with 6 samples.

Results

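MX1, MX2, RSAD2 (viperin), CMPK2, BST2 (tetherin), SAMD9, SAMD9L, XAF1 and ISG20 are antiviral and interferon-inducible effector genes. They were taken as a set by their symbols, with earlier results of these data known. All 9 were among the 17356 gene lines of the deposited files, and all 9 were among the 16548 genes with enough signal to be tested. They were measured by RNA-seq in C4-2B-ENZR, a human prostate cancer cell line whose name marks resistance to the androgen receptor inhibitor enzalutamide. The siKIF15 group is 3 libraries named siKIF15 and titled as cells with KIF15 knockdown. This name is read here as siRNA against KIF15, which encodes a spindle kinesin. The NC group is 3 libraries of the same cell line labelled as control. Whether these control cells were given an siRNA is not stated in the labels. The siRNA sequences, their number, the dose, the time after transfection and any enzalutamide in the medium are not stated in the labels. Whether replicate libraries were grown as separate cultures is not recorded, so the p-values reflect only library-to-library spread, part of which may be technical.

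Interferons signal through surface receptors and JAK kinases to a transcription factor complex with IRF9 in it; the complex binds a DNA element with repeated GAAA letters and turns on effector genes. The effectors act at different steps: MX proteins are dynamin-like GTPases that block incoming viral nucleocapsids, viperin makes a chain-terminating nucleotide, tetherin holds budding virions at the cell surface, and ISG20 degrades RNA. Some of these genes can also be induced without interferon, by transcription factors of the IRF family.

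The targeted transcript did not bear out the knockdown label. KIF15 stood at 294.8, 333.1 and 363.0 in the libraries labelled siKIF15, against 366.4, 403.6 and 319.0 in the NC libraries, and the groups overlapped (log2 change -0.13, 95% interval -0.43 to 0.16; limma adjusted p = 0.57). Every direction below is therefore that of the siKIF15-labelled libraries against the NC libraries. Values are the deposited signal, apparently gene counts adjusted to a common library size, so their depth is unknown and no counting interval is given. The groups were split by a principal component with 46.7% of the variance, and siKIF15 2 and siKIF15 3 stood apart on the next one (14.8%). The prostate luminal markers fitted the labelled cell type, with all 10 (KLK3 among them) at or above 1 in every library and a summed value of 323654 to 344377 in siKIF15-labelled libraries and 299814 to 309191 in NC libraries. Of 10 leukocyte markers 7 were listed, with a summed value of 19.4 to 43.2 in siKIF15-labelled libraries and 23.6 to 41.9 in NC libraries. PTPRC, which defines leukocytes, was at the floor in every siKIF15-labelled library and at 0.79, 0.10 and 3.85 in the NC libraries. CD14 had the highest mean of the 7 and was not at the floor. It stood at 2.97, 32.2 and 29.8 in siKIF15-labelled libraries and at 20.4, 32.0 and 12.1 in NC libraries. None of these 7 passed limma's test in either direction, and none had an unadjusted p under 0.05 (0 higher and 0 lower).

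The DNA next to the start sites is shown first, because these genes share an interferon-responsive promoter element in textbook accounts. RefSeq windows on GRCh38.p14, from 250 bases before to 50 bases after each annotated start, were found for 8 of the 9 genes (14 windows); MX2 had no entry. The pattern GAAANNGAAA, read on both strands, was in 6 of these windows and in windows of 5 genes. It occurs in 3.57% of the 35116 windows of this length in the genome table, and in windows of 4.38% of its 27305 genes. A shorter-spaced pattern, GAAANGAAA, was added after the sequences had been read, and it occurs in 3.12% of all windows. The patterns can overlap. With either pattern 7 of the 8 genes had a match, and the SAMD9L window had none. Over the 27305 genes in the table the share was 7.83%. The shorter pattern was picked from these same sequences, so setting the 7 against that share is no test. The CMPK2 matches also lie in DNA that holds RSAD2 matches. A match is a description of letters and not a measured binding site.

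Of the 10 stretches that hold matches 7 are printed, 5′ to 3′ on the strand of the gene, with matches to either pattern in capitals. The CMPK2 stretch repeats bases of an RSAD2 stretch and is not shown, and MX1 is shown for 1 of its 3 annotated starts. They come from chr19:17405725-17405780 (minus strand) for BST2, chr7:93118086-93118140 (minus strand) for SAMD9, chr15:88638927-88638976 (plus strand) for ISG20, chr17:6756021-6756069 (plus strand) for XAF1 and chr21:41420519-41420587 (plus strand) for MX1. RSAD2 is shown for both of its annotated starts, at chr2:6865713-6865853 and chr2:6877612-6877661 (plus strand).
BST2: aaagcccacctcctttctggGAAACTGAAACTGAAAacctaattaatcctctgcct
SAMD9: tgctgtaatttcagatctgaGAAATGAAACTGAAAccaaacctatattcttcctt
ISG20: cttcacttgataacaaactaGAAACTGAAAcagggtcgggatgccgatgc
XAF1: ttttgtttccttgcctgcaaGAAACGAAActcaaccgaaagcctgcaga
MX1: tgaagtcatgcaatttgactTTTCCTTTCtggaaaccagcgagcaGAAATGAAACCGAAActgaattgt
RSAD2 upstream start: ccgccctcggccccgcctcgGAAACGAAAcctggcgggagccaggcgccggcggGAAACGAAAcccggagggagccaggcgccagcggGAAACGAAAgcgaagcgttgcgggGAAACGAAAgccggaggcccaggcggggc
RSAD2 downstream start: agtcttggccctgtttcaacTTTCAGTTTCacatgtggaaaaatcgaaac

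The upstream RSAD2 stretch holds 4 GAAANGAAA matches and lies inside the CMPK2 gene, which runs on the opposite strand. A CMPK2 window on that strand holds 2 matches, in chr2:6865790-6865853, within the coordinates of the RSAD2 stretch. Because the 2 genes overlap and the counting is not stated to use strand, reads from the overlap cannot be told apart. MX1, whose values changed least of the 9, had a match to 1 or both patterns in each of its 3 windows.

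All 9 genes rose in the siKIF15-labelled libraries by limma on log2(value + 1), where 9.66% of all genes tested were called higher (1599 genes, with 1379 called lower; 1205 and 1753 when libraries were scaled to equal totals). The groups did not overlap for any of the 9, where 18.3% of all genes tested had every siKIF15-labelled library above every NC library. Because the 9 were chosen with earlier results known, these shares give a scale and are no test of the set. XAF1 averaged 0.66 in NC libraries, so it was tested only through its siKIF15-labelled values. Log2 changes ran from 0.55 for MX1 to 7.57 for RSAD2, with a median of 2.92, beside a median of -0.0035 over all genes tested. In bulk RNA, more RNA per cell and more responding cells cannot be told apart. Folds below are ratios of group means. The plot of values by library shows the 9 genes in order of their change.

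**Figure D1:**
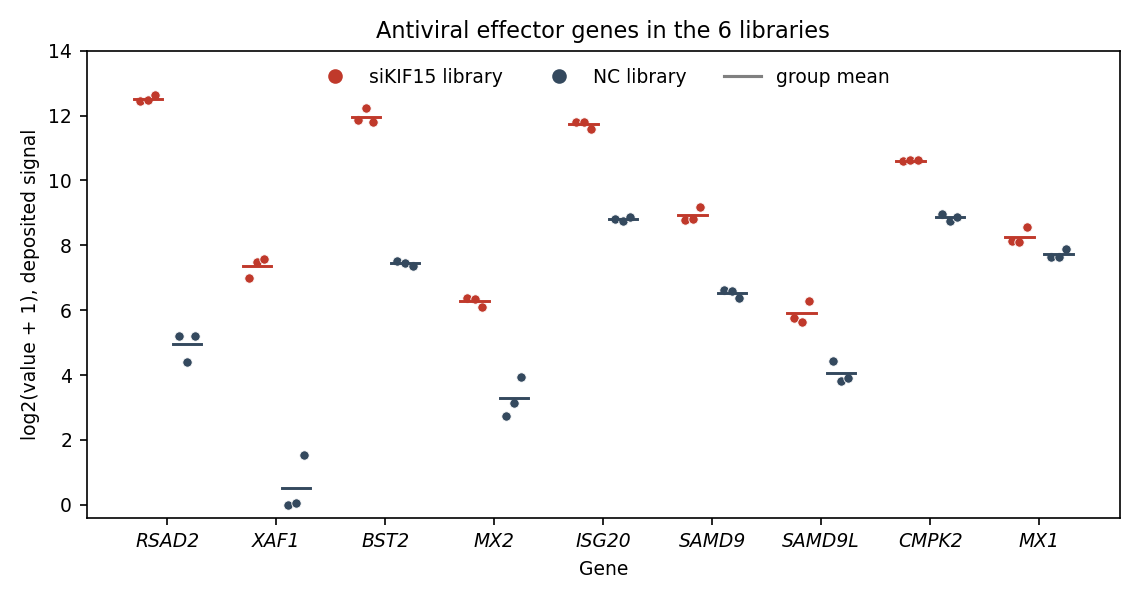
Values of the 9 genes as log2(value + 1) of the deposited signal, with 1 point per library, siKIF15-labelled libraries left of NC libraries and a bar at each group mean. The groups are separate for every gene, widest for RSAD2 and XAF1 and narrowest for MX1.

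Viperin gave the largest rise of the 9. RSAD2, a radical SAM enzyme that turns CTP into a chain-terminating analogue, stood at 5585, 5690 and 6353 in the siKIF15-labelled libraries, against 36.1, 20.3 and 36.1 in NC libraries. Every siKIF15-labelled value was far above every NC value, a 190.4-fold ratio of means and the rank of 14 among all genes tested (log2 change 7.57 ± 0.18 SE, adjusted p = 6.1e-14). CMPK2, a mitochondrial nucleotide kinase that supplies CTP and stands next to RSAD2 on chromosome 2, was at 1545, 1580 and 1570 in the siKIF15-labelled libraries and at 497.5, 432.9 and 466.2 in NC libraries. Its libraries lay close together within each group, and the rise was 3.36-fold (log2 change 1.75 ± 0.10 SE, adjusted p = 2.5e-09).

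The ratio of these neighbours was compared within each library, as deposited and not per length. RSAD2 had 3.61, 3.60 and 4.05 times the value of CMPK2 in the siKIF15-labelled libraries, against 0.0727, 0.0469 and 0.0774 times in the NC libraries. The log2 ratio differed by 5.82 between the groups, with no overlap (exact two-sided permutation test p = 0.1, adjusted over 3 pairs 0.1, the smallest p that 3 against 3 libraries can give).

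The 2 MX paralogs are neighbours on chromosome 21. MX1, which encodes the cytoplasmic influenza restriction factor MxA, was at 282.4, 271.8 and 379.3 in the siKIF15-labelled libraries and at 198.6, 198.1 and 235.2 in NC libraries. The groups were separate, but siKIF15 3 stood above the other siKIF15-labelled libraries by more than they stood above NC 3. MX1 rose 1.48-fold (log2 change 0.55 ± 0.16 SE, 95% interval 0.20 to 0.90, adjusted p = 0.029) and ranked 1761 of 16548 by log2 change. Its call ended without siKIF15 1 (adjusted p = 0.090), siKIF15 3 (0.066), NC 1 (0.10) or NC 2 (0.13), without the variance trend (0.11) and with libraries scaled to equal totals (0.071).

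MX2 encodes MxB, which is known for restricting HIV at nuclear entry. It stood at 82.5, 80.4 and 67.2 in the siKIF15-labelled libraries, against 5.74, 7.88 and 14.3 in NC libraries. The rise was 8.23-fold (log2 change 2.99 ± 0.36 SE, adjusted p = 2.9e-05), and NC 3 was the highest of the low NC values. MX1 had 3.42, 3.38 and 5.65 times the value of MX2 in the siKIF15-labelled libraries and 34.6, 25.1 and 16.4 times in NC libraries. The log2 ratio of MX1 over MX2 was lower in every siKIF15-labelled library, by a mean difference of -2.44 (exact two-sided permutation test p = 0.1, adjusted 0.1). How reads shared between the paralogs were counted is not stated, so the split between them is uncertain.

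**Figure D2:**
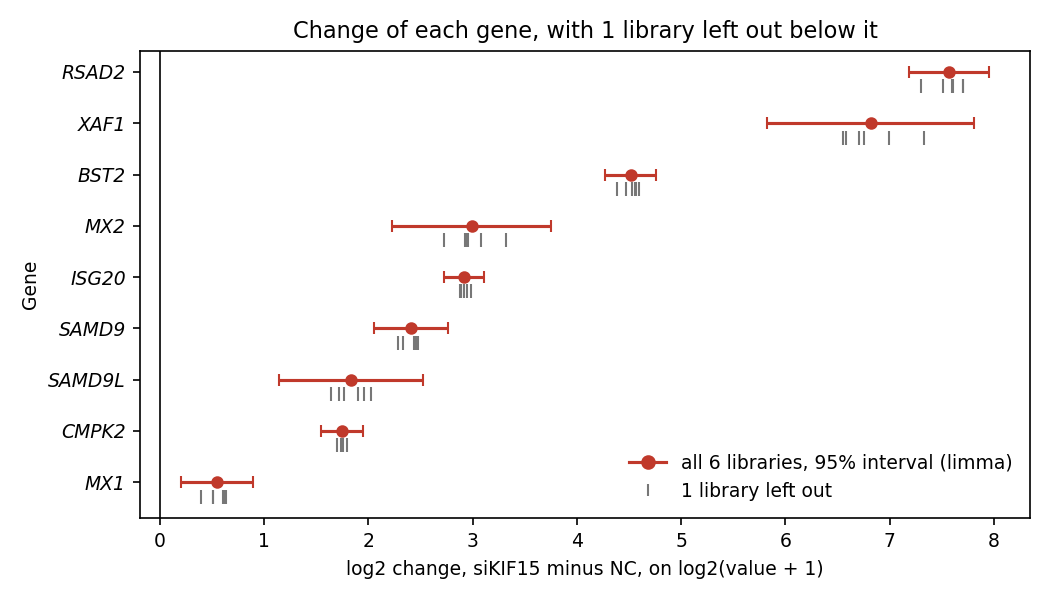
Log2 change of each gene, siKIF15-labelled minus NC libraries on the log2(value + 1) scale, with the 95% interval of the fit (red) and the values with 1 library left out (grey ticks). The order runs from RSAD2 at 7.57 to MX1 at 0.55, and leaving out a library moved no gene across 0.

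BST2 encodes tetherin, a membrane protein that ties virions to the cell. It was at 3719, 4772 and 3586 in the siKIF15-labelled libraries and at 182.2, 175.5 and 162.9 in NC libraries. Each siKIF15-labelled value was well above the NC range, with siKIF15 2 the highest, and the rise was 23.2-fold (log2 change 4.52 ± 0.12 SE, adjusted p = 1.4e-13). BST2 is also known as a marker of plasmacytoid dendritic cells, of which LILRA4 stood at 3.71, 0.01 and 0.01 in the siKIF15-labelled libraries and at 0, 0.04 and 1.93 in NC libraries.

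ISG20, an exonuclease that degrades single-stranded RNA, was at 3561, 3596 and 3101 in the siKIF15-labelled libraries, against 449.2, 433.8 and 470.1 in NC libraries. Both groups were tight, and the rise was 7.58-fold (log2 change 2.92 ± 0.09 SE, adjusted p = 1.8e-12). The changes of ISG20 and MX2 lay within each other's error.

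XAF1, which antagonises the caspase inhibitor XIAP, lay at or near 0 in NC libraries. It stood at 127.2, 178.4 and 189.7 in the siKIF15-labelled libraries, against 0, 0.04 and 1.93 in NC libraries, so no fold is given. On the log2(value + 1) scale the change was 6.82 ± 0.47 SE (adjusted p = 4.3e-08), and it was 4.91 with a pseudocount of 5 and 7.55 with a pseudocount of 0.5. XIAP itself averaged 3803 ± 610 in siKIF15-labelled libraries and 4583 ± 239 in NC libraries (SD, n = 3 each; limma adjusted p = 0.058), with overlapping groups. It was called lower by limma without siKIF15 3 (adjusted p = 0.00085) and with quantile normalization (0.044). The fit without siKIF15 3 called 5077 genes, against 2978 with all 6 libraries.

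SAMD9 and SAMD9L are large paralogous proteins, adjacent on chromosome 7, that restrict poxviruses and slow protein synthesis and cell growth. SAMD9 was at 442.5, 449.2 and 581.6 in the siKIF15-labelled libraries and at 97.6, 94.6 and 81.3 in NC libraries, a 5.39-fold rise (log2 change 2.41 ± 0.17 SE, adjusted p = 4.7e-08). SAMD9L was at 53.5, 49.2 and 77.2 in the siKIF15-labelled libraries, against 20.8, 13.2 and 14.2 in NC libraries, a 3.74-fold rise (log2 change 1.84 ± 0.32 SE, adjusted p = 0.0011). In both genes siKIF15 3 was the highest library.

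The ratio of SAMD9L to SAMD9 was 0.121, 0.110 and 0.133 in the siKIF15-labelled libraries and 0.213, 0.139 and 0.174 in NC libraries. With 1 added to each value, the log2 ratio was lower by a mean difference of -0.57, with siKIF15 3 just below NC 2 (exact two-sided permutation test p = 0.1, adjusted 0.1). Reads that fit both paralogs make this split uncertain as well.

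**Figure D3:**
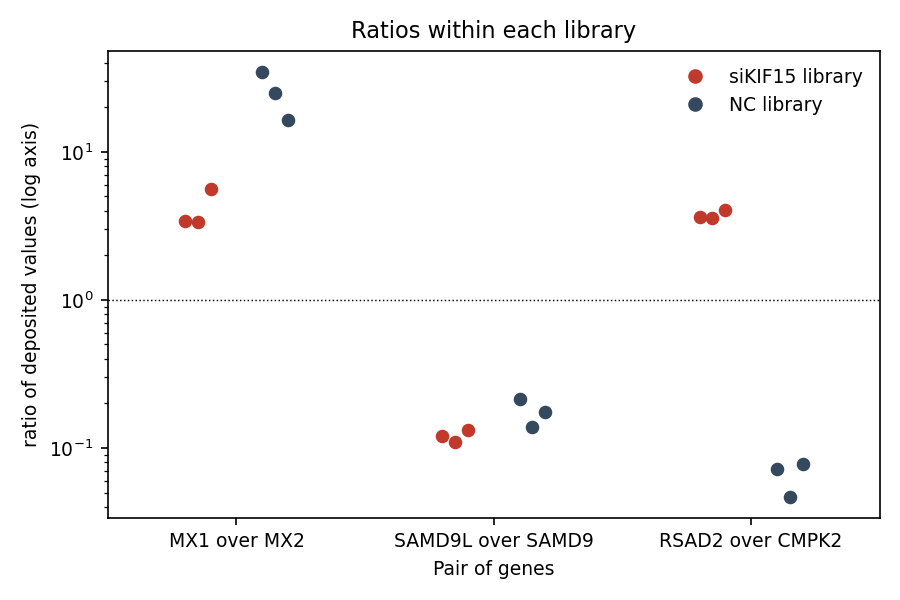
Ratio of the deposited values of 2 genes within each library, on a log axis, siKIF15-labelled libraries left of NC libraries, with a dotted line at equal values. RSAD2 over CMPK2 crosses the line between the groups, and MX1 over MX2 stays above it in all 6 libraries.

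Within the siKIF15-labelled group the 9 genes did not follow 1 library. siKIF15 3 was the highest for MX1, RSAD2, SAMD9, SAMD9L and XAF1, and the lowest for MX2, BST2 and ISG20. Its log2 deviation from the mean of siKIF15 1 and 2 ran from -0.27 for MX2 to 0.58 for SAMD9L. The GC content of the principal GENCODE transcript was 36.1% for SAMD9 and 38.5% for SAMD9L, and 54.2% for ISG20 and 57.3% for BST2, with MX1 at 52.4% and MX2 at 49.8%. The part of base composition in these deviations was not tested.

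Set per kilobase of that transcript, the genes could be ordered by level. In siKIF15-labelled libraries BST2 came first at 3950 ± 638 per kb (SD, n = 3), then ISG20 at 1842 ± 149 and RSAD2 at 1670 ± 118, whose mean ± SD ranges overlapped. CMPK2 followed at 543 ± 6.18 per kb, and MX1 at 89.7 ± 17.1 and SAMD9 at 71.7 ± 11.4 were not separated by their spread. XAF1 at 45.6 ± 9.20, MX2 at 25.2 ± 2.73 and SAMD9L at 8.41 ± 2.11 per kb came last. In NC libraries the order was ISG20 at 243 ± 9.81 per kb, BST2 at 170 ± 9.62 and CMPK2 at 161 ± 11.2 (the last 2 not separated by their spread), MX1 at 60.7 ± 6.13, SAMD9 at 13.3 ± 1.26 and RSAD2 at 8.77 ± 2.59. MX2, at 3.06 ± 1.47, and SAMD9L, at 2.25 ± 0.58, overlapped, and XAF1 averaged 0.18 per kb. RSAD2 thus stood above CMPK2, MX1 and SAMD9 per kilobase in siKIF15-labelled libraries and below all 3 in NC libraries.

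Of the 12 nearest tested neighbours of the 9 on the chromosome, none was called higher by limma and 2 were called lower, where 9.66% of all genes tested were called higher and 8.33% lower. With so few neighbours these counts are near that background, so they are no result about the neighbours. At an unadjusted p under 0.05, 1 neighbour was higher (CCDC194) and 3 were lower (TMPRSS2, VPS50 and ALOX12). At that cut 2591 of the 16548 genes tested were higher and 2475 lower, so these counts are near background too. CCDC194, next to BST2, lay near the floor, with 4.35 ± 2.80 in siKIF15-labelled libraries and 0.30 ± 0.50 in NC libraries (SD, n = 3 each, limma adjusted p = 0.087). MVB12A, on the other side of BST2, averaged 2974 ± 336 in siKIF15-labelled libraries and 2873 ± 249 in NC libraries (adjusted p = 0.77).

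TMPRSS2, an androgen-regulated protease gene next to MX1, fell to 6287, 6260 and 5998 in the siKIF15-labelled libraries, against 7292, 7067 and 7079 in NC libraries (log2 change -0.21, adjusted p = 0.034). FAM3B, on the far side of MX2, had a log2 change of 0.06 (adjusted p = 0.92). VPS50, an endosomal trafficking gene beyond SAMD9L, averaged 556 ± 103 in siKIF15-labelled libraries and 761 ± 29 in NC libraries (log2 change -0.47, adjusted p = 0.018), and CDK6, beyond SAMD9, had a log2 change of -0.15 (adjusted p = 0.60). The call of TMPRSS2 ended without siKIF15 1 (adjusted p = 0.095), NC 1 (0.16), NC 2 (0.10) or NC 3 (0.12), and that of VPS50 ended without siKIF15 1 (0.13), siKIF15 2 (0.062), NC 1 (0.059), NC 2 (0.082) or NC 3 (0.086). Without the variance trend both calls ended, at adjusted p = 0.10 for TMPRSS2 and 0.12 for VPS50.

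Around the other loci no neighbour was called. SOX11 and RNF144A flank the CMPK2 and RSAD2 pair and had log2 changes of -0.45 (adjusted p = 0.22) and 0.08 (0.64). SLC13A5 and ALOX12, around XAF1, had 0.72 (0.49) and -0.30 (0.13), and AEN and ACAN, around ISG20, had -0.02 (0.86) and 1.00 (0.39). SLC13A5 and ACAN lay near the floor, with means of 4.26 and 5.48 in siKIF15-labelled libraries and 2.43 and 2.48 in NC libraries.

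**Figure D4:**
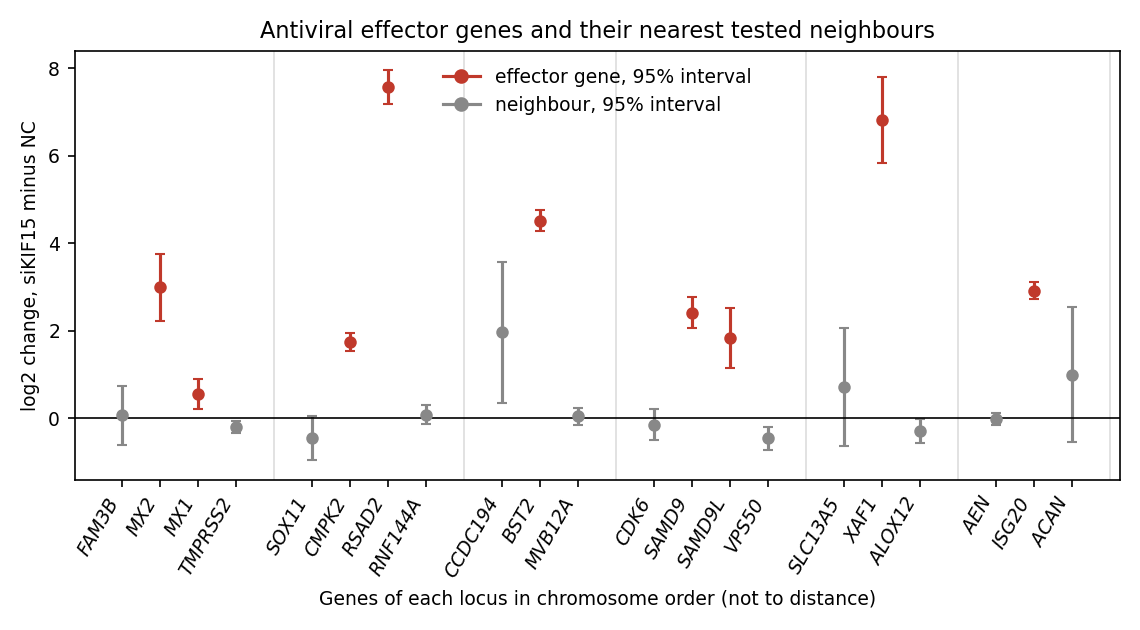
Log2 change with 95% interval for the 9 genes (red) and their nearest tested neighbours (grey), in chromosome order within each locus and not drawn to distance. The effector genes lie above 0, and the neighbours with values well above the floor lie near or below it.

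Of 22 tested relatives by protein family or partnership, 2 were called higher, none lower and 20 not called by limma, where 9.66% of all genes tested were called higher and 8.33% lower. The count of higher calls is near that background, so it is no result about the relatives. Their median log2 change was -0.03. At an unadjusted p under 0.05, 3 of the 22 were higher (BIRC3, ISG20L2 and DNM2) and 4 lower (XIAP, DNM1L, OPA1 and CMPK1). At the same cut 2591 of the 16548 genes tested were higher and 2475 lower, so these counts are near background too. The 2 called higher were BIRC3 and ISG20L2. BIRC3, an inhibitor of apoptosis that is a known NF-kappa B target, averaged 1952 ± 351 in siKIF15-labelled libraries and 290.4 ± 11.6 in NC libraries (6.72-fold, limma adjusted p = 1.8e-10). ISG20L2 is a nucleolar exonuclease of the ISG20 family (1.36-fold, limma adjusted p = 0.00040). The other ISG20 relatives AEN, REXO1, REXO2 and REXO4 had log2 changes between -0.05 and -0.01. Among dynamin-type GTPases related to MX, DNM2 had a log2 change of 0.16 (adjusted p = 0.11) and OPA1 one of -0.23 (adjusted p = 0.12). CMPK1, the cytosolic kinase counterpart of CMPK2, had a log2 change of -0.18 (adjusted p = 0.12). Without siKIF15 3 the list had 4 genes called higher and 5 lower. That fit called 2537 genes higher and 2540 lower over all genes, against 1599 and 1379 with all 6 libraries. The counts without siKIF15 3 are therefore no result about the relatives either.

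The interferon pathway above the effectors moved unevenly. Of 21 ligands, receptors, kinases, factors and RNA sensors, 19 were tested, of which 13 were called higher and 1 lower by limma, where 9.66% of all genes tested were called higher and 8.33% lower. The median log2 change of these 19 was 0.71. The interferon genes IFNL1 and IFNB1 had the largest changes of all genes tested (10.19 and 10.10). Their NC means of 1.11 and 1.24 lay near the floor, so the size of these changes depends on the pseudocount. The RNA sensor gene DDX58, which encodes RIG-I, rose 22.6-fold. IRF9 rose 4.62-fold (adjusted p = 2.6e-09), and its partner STAT2, with a ratio of means of 1.19, lay next to the threshold (adjusted p = 0.051), and passed it without siKIF15 2 (0.037) or siKIF15 3 (0.043) and with quantile normalization (0.040). IFNAR1, a receptor chain for interferon beta, was the 1 called lower (log2 change -0.26, adjusted p = 0.044). That call ended without siKIF15 1 (adjusted p = 0.19), siKIF15 2 (0.11), NC 1 (0.097), NC 2 (0.21) or NC 3 (0.10), with quantile normalization (0.059) and without the variance trend (0.16).

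Of 29 tested antiviral genes outside the 9, 19 were called higher, none lower and 10 not called by limma, where 9.66% of all genes tested were called higher and 8.33% lower. The median log2 change of these 29 was 1.98. At an unadjusted p under 0.05, 19 of them were higher and 0 lower, beside 2591 higher and 2475 lower of the 16548 genes tested. OASL, IFIT1, IFIT2 and ISG15 had the smallest adjusted p and log2 changes of 8.13, 7.52, 7.85 and 4.52. EIF2AK2, the gene for the RNA-activated kinase PKR, had means of 1324 ± 252 in siKIF15-labelled libraries and 1402 ± 48.9 in NC libraries (adjusted p = 0.61). ADAR had a log2 change of 0.09 (adjusted p = 0.61). By limma, EIF2AK2 was called lower without siKIF15 3 (log2 change -0.24, adjusted p = 0.046), in a fit that called 5077 genes against 2978 with all 6 libraries. ADAR was called higher without siKIF15 2 (0.26, adjusted p = 0.013). TRIM25, SLFN5, SLFN11, APOBEC3B, APOBEC3C, APOBEC3F and APOBEC3G were among the others that did not pass. The smallest called rises were those of TRIM5 and IFITM2, with log2 changes of 0.26 and 0.51. The call of TRIM5 ended without siKIF15 1 (adjusted p = 0.11), NC 2 (0.16) or NC 3 (0.15), with libraries scaled to equal totals (0.10) and without the variance trend (0.14). That of IFITM2 ended without siKIF15 1 (0.12), siKIF15 2 (0.059), NC 1 (0.097) or NC 3 (0.060), and without the variance trend (0.076).

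**Figure D5:**
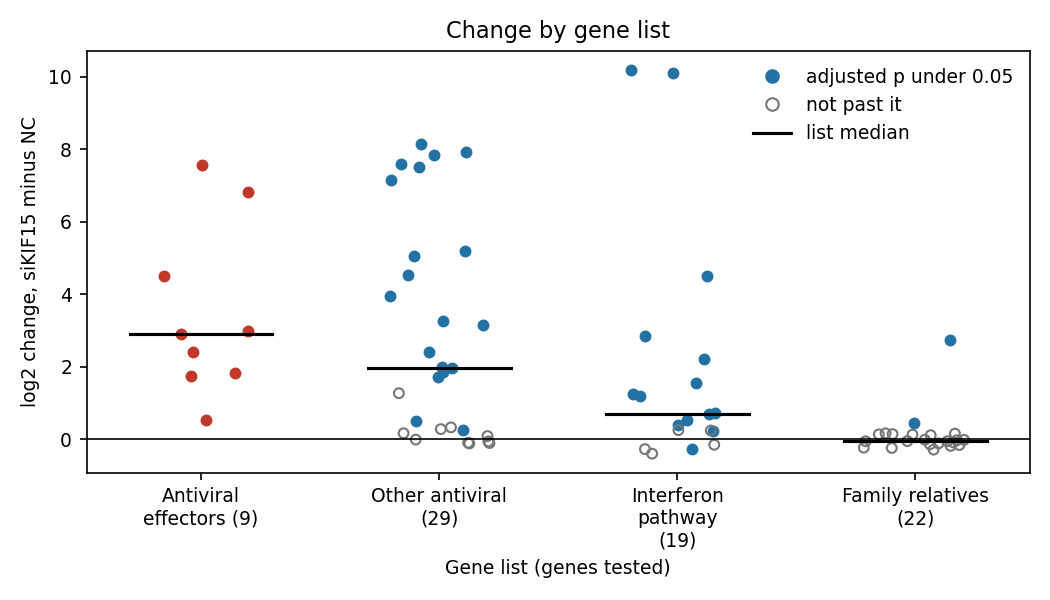
Log2 change, siKIF15-labelled minus NC libraries, for the 9 effector genes (red), other antiviral genes, interferon pathway genes (blue where the adjusted p is under 0.05, open where not) and family relatives, with list medians as bars. The medians are 2.92, 1.98, 0.71 and -0.03.

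The genes whose pattern over the 6 libraries was most like the mean standardised profile of the 9 were GBP4, TXNIP, ACPP, HERC5 and RGS2, with Pearson r of 0.9994, 0.9987, 0.9985, 0.9985 and 0.9984 out of 11499 genes that averaged 100 or more in either group. With 2 groups of libraries an r this high mainly states that the groups differ, and 84 genes had an r over 0.99. GBP4, an interferon-inducible GTPase gene, averaged 2621 ± 348 in siKIF15-labelled libraries and 125 ± 25.9 in NC libraries (SD, n = 3 each). ACPP, which encodes prostatic acid phosphatase, averaged 2118 ± 111 in siKIF15-labelled libraries and 1009 ± 22.8 in NC libraries.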

How the data were processed

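For each of 6 libraries the authors deposited a signal value for every gene symbol. The unit is not stated in the file headers; from the values, the signal appears to be gene counts adjusted to a common library size. Per the submitters' processing notes, the tools include Bowtie 0.12.2 and the builds are mm8 and mm9 (mouse), while the labels give human cells; the human build and annotation are not given in the sources used here. Depth is unknown.

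Values were analysed as log2(value + 1) for genes that averaged 1 or more in either group, with limma 3.58.1 (R 4.3.3) and an intensity-dependent variance trend, siKIF15 minus NC, all 6 libraries in 1 fit with no covariate. This scale understates the change of low genes. Adjusted p-values are Benjamini-Hochberg values over all genes tested, at a threshold of 0.05. The fit was also run on simulated data with noise drawn independently for each gene. That run cannot show how the fit behaves where many genes of a library deviate together. Library ratios of 2 genes were compared by exact permutation, on log2 ratios with 1 added to each value. Neighbours are the nearest tested genes in RefSeq GRCh38.p14, used for order only; 17005 of 17354 symbols matched it. Lengths and GC content are from GENCODE release 29. Alternatives were other pseudocounts, filters and scalings, no variance trend, a replicate block and leaving out each library.

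The 9 genes and the lists were chosen with earlier results of these data known. The text names the 9, KIF15, KLK3, the neighbours, up to 4 genes per list with the smallest adjusted p, genes that go against their list, counts of 5 or fewer, and the 5 most alike genes. Other list genes were named after their values were seen. Lines with symbols turned into dates (25) are not named.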

Additional observations from a re-analysis of the deposited data

How the results depend on the processing

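MX2, RSAD2, CMPK2, BST2, SAMD9, SAMD9L, XAF1 and ISG20 kept their direction and their call in all 15 alternatives each. MX1 kept its direction in 15 and lost its call in 6, 4 of them with 1 library left out; its log2 change was 0.49 with libraries scaled to equal totals and 0.55 without the variance trend. With 1 library left out, log2 changes ran from 0.40 to 0.64 for MX1, 2.73 to 3.32 for MX2, 7.30 to 7.70 for RSAD2, 1.70 to 1.80 for CMPK2, 4.39 to 4.60 for BST2, 2.28 to 2.48 for SAMD9, 1.64 to 2.03 for SAMD9L, 6.55 to 7.33 for XAF1 and 2.88 to 2.99 for ISG20, and 8 or 9 of the 9 were called. The genes called over all genes numbered 1070 without the variance trend (760 higher, 310 lower) and 1184 (without siKIF15 1) to 5077 (without siKIF15 3) with 1 library left out, of which 767 to 2537 were higher and 417 to 2540 lower. KIF15 stayed lower but uncalled, from -0.22 to -0.05. The pair differences kept their sign, from -2.69 to -2.22 (MX1 over MX2), -0.72 to -0.43 (SAMD9L over SAMD9) and 5.61 to 5.95 (RSAD2 over CMPK2). Replicate numbers are shared by the groups in the labels, which do not state whether same-numbered libraries were paired. Deviations of same-numbered libraries correlated at only 0.02, -0.02 and 0.02. No large shared effect was thus seen, but these values cannot show how the libraries were made. With the replicate number as a block, 3184 genes and 9 of the 9 were called. With that block TMPRSS2 was not called (adjusted p = 0.063), and XIAP (0.021) and STAT2 (0.038) were. The cause of the losses was not tested.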
